A study of Mus musculus with 4 samples.

Results

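The cathepsins are the proteases of lysosomes, and the cystatins are small proteins that block the cysteine proteases among them. The genes followed here number 10: the cystatin genes Cst7 and Cst3 and the cathepsin genes Ctsb, Ctsc, Ctsd, Ctsh, Ctsk, Ctsl, Ctss and Ctsz. They are 10 of the 7577 genes with values, measured by 16 probe sets. A member probe set is one that the platform annotation assigns to one of the 10 genes alone and that has values on all arrays. The genes were selected on function and on measured values of the same knockout against wild type comparison, in which Cst7 was already known to be among the largest falls. Their genotype differences are therefore given as a description, with no p-value for any of them.

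The cells were mouse peritoneal macrophages from PPARg WT and PPARg KO animals on a mixed background of the 129/SV and C57BL/6 strains. Pparg encodes PPARγ, a nuclear receptor that responds to lipids. Both groups received 2.5 ml of 3% thioglycollate, an irritant that draws macrophages into the peritoneal cavity. Lavage followed 3 days later, and the cells were left to attach for 5 h in medium with 10% serum. They were then kept for 24 h in medium with 0.5% serum, with no ligand or stimulus named. The age of the mice, the way the Pparg allele was made and the cells in which it is missing are not given in the sources used here. Each genotype had 2 arrays (WT and KO replicates 1 and 2, each a biotin-labelled sample on an Affymetrix array). The second array of each pair is described as a duplicate, and no label names the animals or cultures behind it. The spread between them may therefore be technical.

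Cathepsins are made as inactive precursors, sorted to the lysosome and activated there. In macrophages they degrade ingested protein, trim the invariant chain of MHC class II and activate other enzymes. Most members are cysteine proteases related to papain, whereas cathepsin D is an aspartic protease. Cystatin C, the product of Cst3, is secreted and inhibits such cysteine proteases broadly. Cystatin F, the product of Cst7, is made mainly by blood cells, is directed in part to lysosomes, and acts on cathepsins C and L among others.

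The 4 arrays had median signals from 136.7 to 142 intensity units. Background was read from the 12 control probe sets of the reverse strand, whose highest signal was between 143.7 and 156.7 on each array. The 1 Pparg probe set was dim, with 61.1 and 73.1 in WT and 43.0 and 40.6 in KO, all below the highest such control. Where its probes lie relative to the deletion is unknown here, so it is a weak check of the labels. Among 12 macrophage markers with values, the pan-macrophage gene Cd68 read between 6209.6 and 6955.5 on the 4 arrays, and the lysozyme gene Lyz2 between 6871.6 and 7518.7. Siglec1, at 51.9 to 63.1, was below the highest control on all arrays, Mrc1 was below it on both WT arrays and Mertk on KO replicate 1.

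The deposited values carry a limit on replicate spread that bears on every error given here. Over all 10708 rows with values, the coefficient of variation between the 2 arrays of a genotype never reached 20%. Its highest value was 19.97% in WT and 19.99% in KO, and 102 WT rows and 155 KO rows lay at 19% or above. No such edge separated the genotypes: WT replicate 1 and KO replicate 1 differed by more than the highest ratio within a genotype (1.33) at 584 rows. The 1780 blank rows have no values in which the rule could be checked. With wide pairs absent from the table, the spread estimated from it, and the standard errors and adjusted p-values built on it, may be too small by an unknown amount. No label records such a step. Member probe sets had coefficients of variation from 0.0869% to 13.0% in WT and from 2.08% to 14.4% in KO.

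Cst7 was much lower in KO. Its 1 probe set (102638_at) read 406.9 and 406.4 in WT, against 106.2 and 116.9 in KO. The 2 WT values almost coincide, and both KO values lie far below them. The means were 406.65 ± 0.354 in WT and 112 ± 7.57 in KO (SD, n = 2). The log2 difference of KO minus WT, taken here and below on the log2(signal + 16) scale, was -1.73 (SE 0.11), a fold of 3.32. Among 5002 genes above the signal filter, Cst7 ranked 2nd from the lowest difference. The KO signals were close to background: both lay below the highest reverse-strand control of their array, and that of KO replicate 1 lay below the control median of 111.4. The size of the difference therefore depends on the constant added before the logarithm, with -1.86 for 1 and -1.42 for 64. With the highest control of each KO array in place of its Cst7 signal, and the 2 arrays averaged on the log2 scale, the WT signal was 2.60-fold higher. In bulk samples such as these, fewer cells making a transcript and less of it per cell cannot be told apart.

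The 5 genes outside the family named here had the array profiles most like that of Cst7, by Euclidean distance of log2 values centred on their own mean over the 4 arrays. They were Snhg6 (distance 0.29), AW112010 (0.44), Fpr2 (0.45), Ralgds (0.51) and Socs1 (0.55), with log2 differences from -1.44 to -1.21. Snhg6, at -1.44, read 233.9 and 230.8 in WT and 69.4 and 81.5 in KO. Both KO signals were below the control medians of their arrays (111.4 and 106.65), so the size of its difference is limited by background. Fpr2 encodes a formyl peptide receptor, Ralgds an exchange factor for Ral GTPases and Socs1 a suppressor that cytokines induce against their own signal. With 4 arrays in 2 groups, such a likeness mostly reflects the size of the genotype difference.

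Cystatin F transcripts are also known from T, NK and dendritic cells, so markers of these cells are given beside Cst7. Summed over the 9 T and NK cell markers with values (brightest probe set of each), the signals were 783.2 and 820.2 in WT and 803.8 and 735.8 in KO. Only 2 of these 9 were above the signal filter, so the sum is mostly signal near background. The T cell receptor complex genes Cd3d and Cd3g stayed between 31.3 and 68.2 on all arrays, below the highest control. Cd3e, of the same complex, read 131.9 and 146.2 in WT and 167.4 and 147.1 in KO, above the highest control on the KO arrays only, and did not pass (log2 difference 0.16, limma adjusted p = 0.87). Among the 8 dendritic cell markers with values, Itgax was the brightest, at 970.8 and 985.7 in WT and 835.3 and 979.6 in KO. Over all 8, the sums were 2206.9 and 2111.6 in WT and 1772.7 and 1935.8 in KO. Of the 5 that were tested, 1 fell, the endocytic receptor gene Ly75 (log2 difference -0.77, SE 0.13, limma adjusted p = 1.24e-07, and 0.069 without WT replicate 1), and 4 did not pass. The dendritic factor gene Zbtb46 read 45.8 and 49.3 in WT and 37.2 and 35.2 in KO. Both KO values were below both WT values, but all 4 arrays were below the highest control. The part of such cells in the Cst7 difference was not tested.

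Cst3 had slightly higher means in KO. Its brighter probe set (99586_at) read 3235.3 and 3224.0 in WT and 3316.9 and 3792.2 in KO. Both KO values exceed both WT values, but most of the gap comes from KO replicate 2. The log2 difference was 0.13 (SE 0.15), and 0.04 without KO replicate 2. A dimmer probe set (161522_i_at) read 470.0 and 442.0 in WT and 500.6 and 604.6 in KO, a difference of 0.26 (SE 0.14). Cst3 and Cst7 lie on chromosome 2 of the GRCm38.p6 assembly with 10 protein-coding genes starting between them, so the pair of cystatin genes shared a chromosome region but not a difference.

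**Figure D1:**
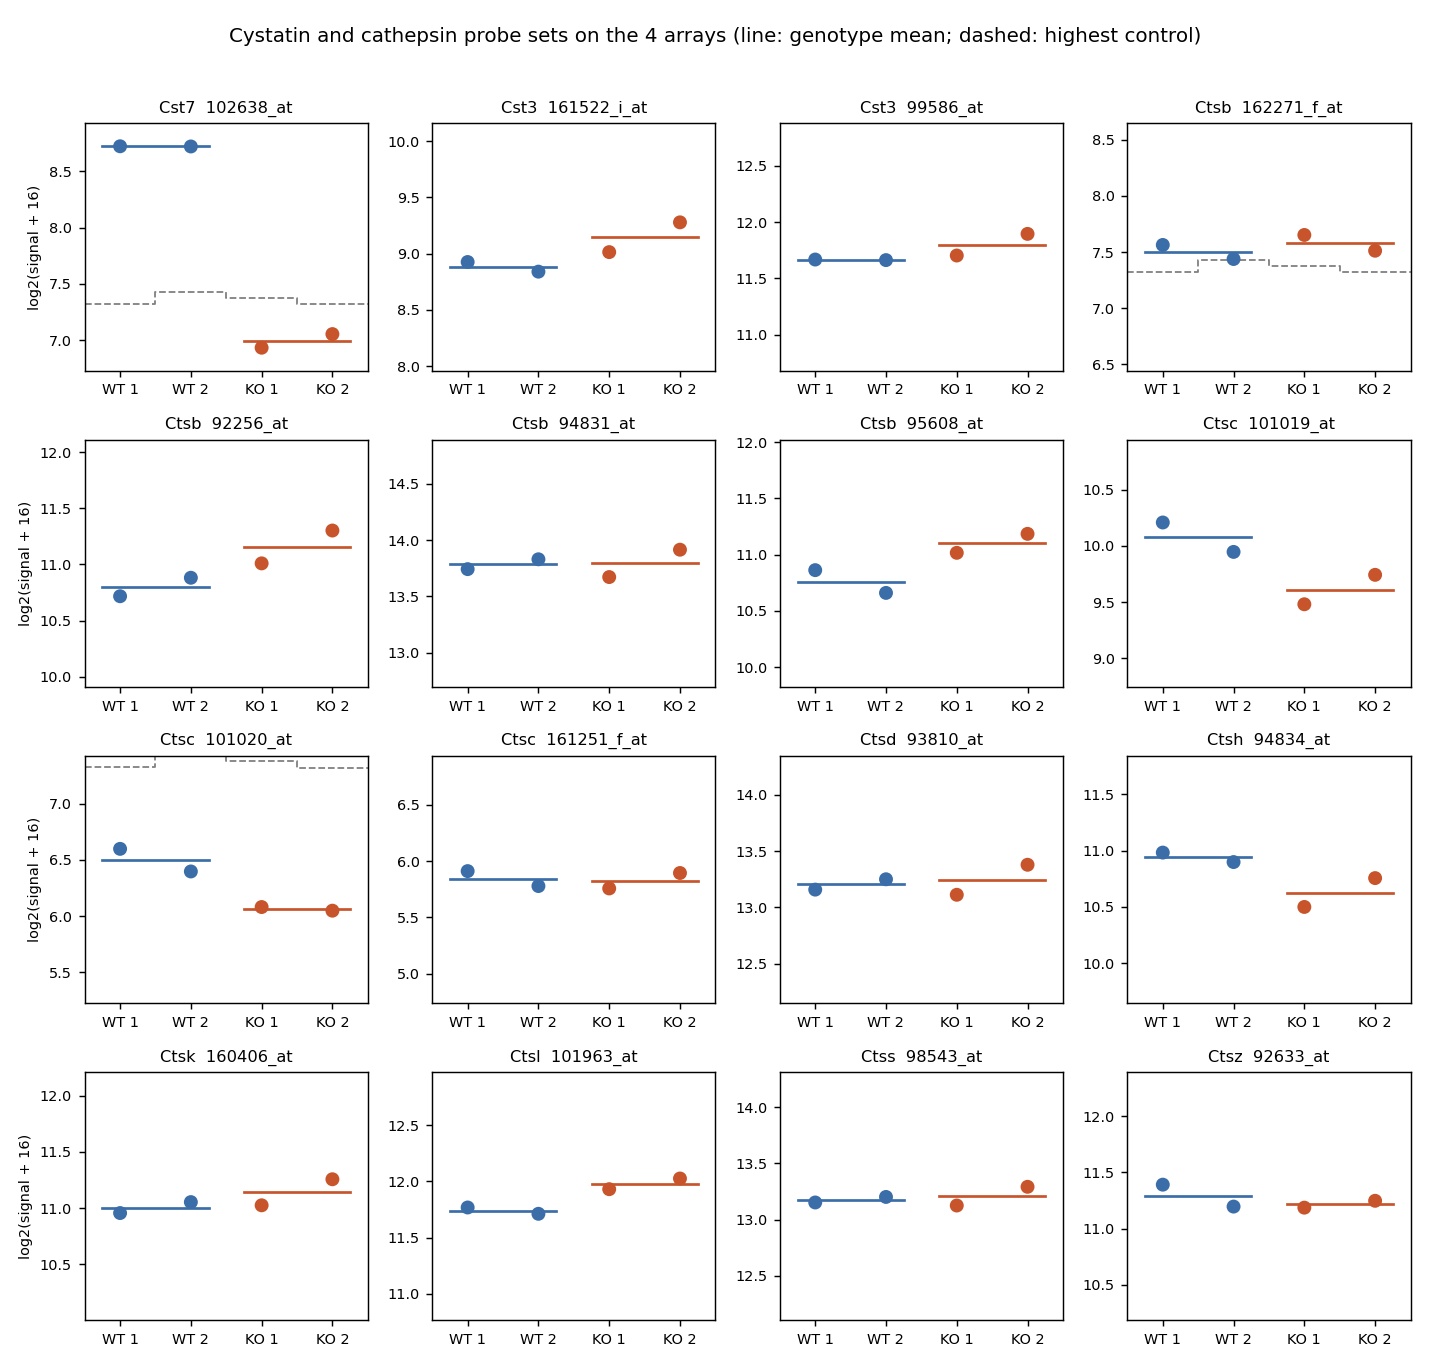
Signal of each of the 16 cystatin and cathepsin probe sets on the 2 WT arrays (blue) and the 2 KO arrays (orange), as log2(signal + 16); every panel spans the same range of log2 units, a line marks the genotype mean, and a dashed line, drawn where it falls in the panel, marks the highest reverse-strand control of the array. The Cst7 points drop from 406.9 and 406.4 to 106.2 and 116.9, below the dashed line, while the other panels show differences of less than 0.5 log2 units.

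Promoter sequence was compared for the member with the large difference, for the cathepsin gene with the next lowest one, Ctsc, and for Ctss, whose signal hardly differed between genotypes. RefSeq promoter windows of GRCm38.p6 held 8 of the 10 genes (Ctsb and Ctsh were not among them). The bases before the annotated gene start are printed on the + strand, 5′ to 3′, and capitals mark matches, on either strand, to the motifs named after them. The Ctsc stretch ends at the annotated gene start, 61 bases short of the start site used for its window. The stretches are chr2:150570165-150570414 for Cst7, chr7:88277835-88278023 for Ctsc and chr3:95526536-95526785 for Ctss.
Cst7: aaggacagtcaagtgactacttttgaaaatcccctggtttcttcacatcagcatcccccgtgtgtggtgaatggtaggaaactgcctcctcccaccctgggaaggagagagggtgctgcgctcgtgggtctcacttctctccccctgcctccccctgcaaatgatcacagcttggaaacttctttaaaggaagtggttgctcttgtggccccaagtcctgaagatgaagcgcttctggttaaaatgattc
Ctsc: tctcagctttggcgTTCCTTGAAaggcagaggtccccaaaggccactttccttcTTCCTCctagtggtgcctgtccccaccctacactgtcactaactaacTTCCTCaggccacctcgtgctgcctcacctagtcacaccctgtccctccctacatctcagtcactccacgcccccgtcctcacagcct
Ctss: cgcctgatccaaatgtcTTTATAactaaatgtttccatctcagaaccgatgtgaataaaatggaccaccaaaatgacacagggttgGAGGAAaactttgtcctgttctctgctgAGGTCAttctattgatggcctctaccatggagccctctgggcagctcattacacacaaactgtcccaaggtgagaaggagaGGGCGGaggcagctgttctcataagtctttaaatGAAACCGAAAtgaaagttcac

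The 9 motifs were searched on both strands of the 300-base windows (250 bases before and 50 after the start). The PPAR element, 2 copies of AGGTCA in the same direction with 1 base between them, was in none of the 8 windows and in 0.0396% of all 32851 windows. The single copy AGGTCA, which the full element contains, was in those of Cst3, Ctsd and Ctss and in 16.3% of all. The interferon-stimulated core, 2 copies of GAAA with 2 bases between them, was in that of Ctss alone among the 8, starting 21 bases before the start, and in 3.44% of all. The STAT element TTCNNNGAA was in that of Ctsc and in 8.3% of all. The E-box CACGTG, core of the element bound by lysosomal regulators such as TFEB, was in those of Ctsd and Ctsl and in 7.15% of all. The C/EBP element TTNNGCAA was in those of Cst7, Ctsk and Ctsl and in 10.8% of all; in Cst7 it lies across the start and so outside the printed stretch. The PU.1 core GAGGAA was in 4 of the 8 windows (28.3% of all), the GC box GGGCGG in 5 (35.7%) and the TATA box TATAAA in 1 (13.6%). The stretch of Cst7 printed above holds none of the 9 motifs. A match is a description of the letters. Only the letters given were searched, so the absence of a match says nothing of inexact sites or of more distant elements.

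Ctsc and Ctsh, which encode aminopeptidases of the family, had lower means in KO. Cathepsin C removes dipeptides and activates the serine proteases of granules. Its brightest probe set (101019_at) read 1166.6 and 970.5 in WT and 698.4 and 840.5 in KO. The genotypes do not overlap, but the gap between the nearest WT and KO values is narrower than the gap within either pair. The log2 difference was -0.47 (SE 0.15), a fold of 1.38. The other Ctsc probe sets were below the signal filter and below the control median on all 4 arrays. One of them (101020_at) read 80.9 and 68.3 in WT and 51.7 and 50.2 in KO, and the other (161251_f_at) read 44.2 and 38.9 in WT and 38.1 and 43.5 in KO, where the genotypes overlap.

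Cathepsin H, which acts as an aminopeptidase and endopeptidase, followed with a smaller difference. Ctsh (94834_at) read 2008.4 and 1893.7 in WT and 1432.1 and 1713.9 in KO. Both KO values were below both WT values. The log2 difference was -0.31 (SE 0.16), a fold of 1.24, and it ran from -0.44 without KO replicate 2 to -0.18 without KO replicate 1.

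Among the cathepsin probe sets, that of Ctsl and 2 of those of Ctsb had both KO arrays above both WT arrays. Cathepsin L is an endopeptidase of lysosomes. Ctsl (101963_at) read 3473.7 and 3340.4 in WT and 3890.5 and 4156.0 in KO, a log2 difference of 0.24 (SE 0.15). Its arrays did not overlap, so removing any 1 array could not change the sign. The difference then ran from 0.19 to 0.29.

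The 4 probe sets of Ctsb, an endopeptidase with carboxydipeptidase activity, gave unlike differences. The probe set 92256_at read 1667.9 and 1871.1 in WT and 2046.0 and 2508.6 in KO, a log2 difference of 0.36 (SE 0.16). The probe set 95608_at read 1844.6 and 1601.0 in WT and 2054.3 and 2311.0 in KO, a difference of 0.34 (SE 0.16). In both, the KO arrays lay above the WT arrays. The brightest, 94831_at, read 13690.9 and 14548.1 in WT and 13037.6 and 15434.7 in KO, a difference of 0.01 (SE 0.13) with the genotypes overlapping. It gave the highest signal of all probe sets on each of the 4 arrays, and whether signals of that size are still proportional to the transcript was not tested. The last, 162271_f_at, was dim, with 173.1 and 157.4 in WT and 185.1 and 166.5 in KO, and differed by 0.08 (SE 0.11). The suffix f is used by Affymetrix for probe sets that can match several related sequences.

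The remaining cathepsin genes had overlapping arrays. Ctsd, the aspartic protease, read 9121.0 and 9722.8 in WT and 8835.1 and 10633.8 in KO, a log2 difference of 0.04 (SE 0.13). Ctss, the protease that finishes trimming the invariant chain, read 9091.7 and 9407.5 in WT and 8923.0 and 10015.6 in KO, a difference of 0.03 (SE 0.13). For both genes the 2 KO arrays bracket the WT pair. Ctsk, a strong collagenase best known from osteoclasts, read 1969.4 and 2108.1 in WT and 2066.5 and 2429.1 in KO, a difference of 0.14 (SE 0.16). Ctsz, a carboxypeptidase, read 2670.3 and 2330.9 in WT and 2315.4 and 2416.0 in KO, a difference of -0.08 (SE 0.16). The sign of the Ctsb 94831_at, Ctsc 161251_f_at, Ctsd, Ctss and Ctsz differences turned when single arrays were left out. Ctsk and Ctss are neighbours on chromosome 3, with 0 protein-coding genes starting between them.

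**Figure D2:**
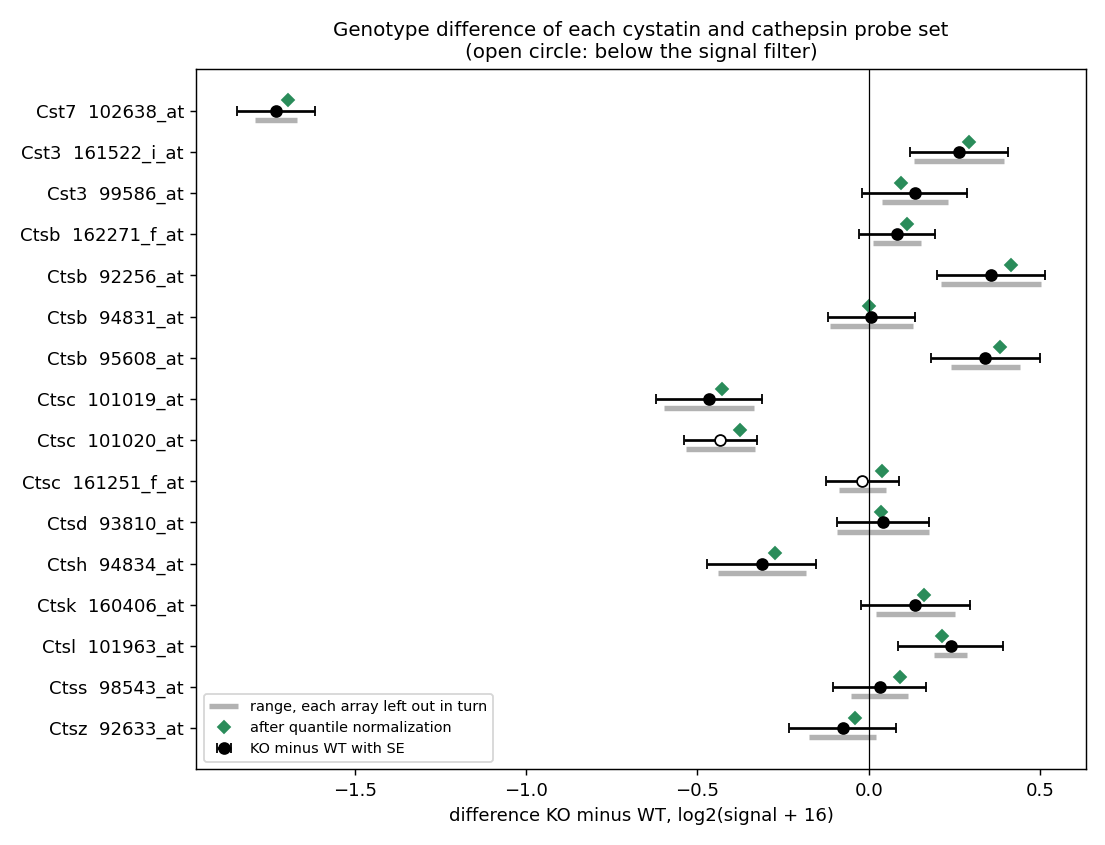
Difference of KO minus WT in log2(signal + 16) for each probe set with its standard error (black; open circles are the 2 Ctsc probe sets below the signal filter), the range when each array is left out in turn (grey bars) and the value after quantile normalization (green). Cst7 stands at -1.73, with a range from -1.79 to -1.67, and the other 15 probe sets lie between -0.47 and 0.36.

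The count of members past the threshold is given for completeness and nothing is read from it, since the members were chosen by this contrast. The fit was limma's over all probe sets above the 40th percentile of mean signal, with Benjamini-Hochberg adjusted p under 0.05. Of the 14 member probe sets above the filter 1 was called, Cst7, lower in KO; over all 6389 tested probe sets 3.55% were called, 1.02% higher and 2.54% lower. Of the 14, 8 had arrays that did not overlap between genotypes (32.4% of all tested), 5 with KO above WT (11.3%) and 3 with KO below WT (21.1%). In a fit that used only the 2 residual degrees of freedom of a single probe set, limma called 0 of all 6389 probe sets after adjustment, Cst7 included, and 388 had an unadjusted p under 0.05.

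**Figure D3:**
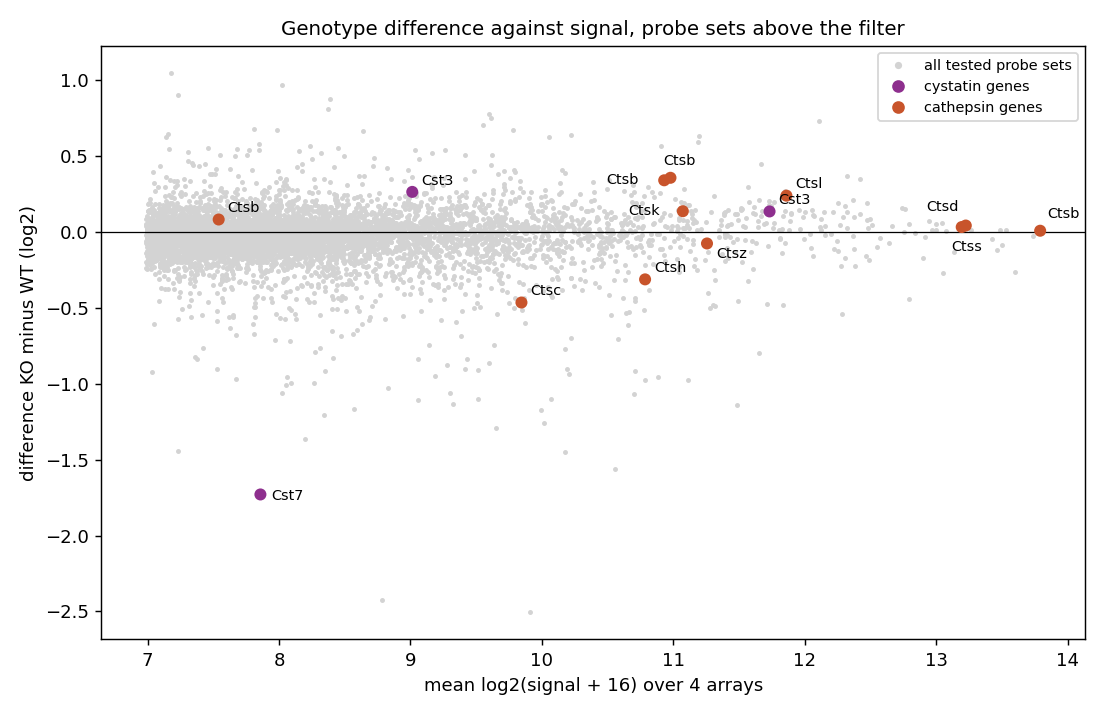
Difference of KO minus WT against mean signal, both in log2(signal + 16), for the 6389 tested probe sets (grey), the cystatin genes (purple) and the cathepsin genes (orange). Cst7 lies at -1.73 below the grey band, and the cathepsin probe sets lie mostly at the bright end.

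The KO replicates of the bright members differed mostly in 1 direction. Of the 14 member probe sets above the filter, 13 read higher on KO replicate 2 than on KO replicate 1, and 5 read higher on WT replicate 2 than on WT replicate 1. Among the 639 brightest tested probe sets (decile 10 by mean signal), which include 10 of the member probe sets, 96.9% were higher on KO replicate 2 and 70.9% on WT replicate 2. Of those 10 member probe sets, 10 were higher on KO replicate 2 and 5 on WT replicate 2. Over the 639, the median log2 difference of KO replicate 2 minus replicate 1 was 0.21. The median over those 10 member probe sets was also 0.21, with a range from 0.06 for Ctsz to 0.29 for Ctsb 92256_at. In WT the 639 probe sets had a median of 0.07, and the 10 member probe sets one of 0.02. The genotype differences of Ctsb, Ctsh and Ctsl were at most 0.36 in size, with Ctsh lower and Ctsb and Ctsl higher in KO. Beside the median gap of 0.21 between the KO arrays, the 639 probe sets had a median KO minus WT log2 difference of 0.005.

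Quantile normalization gives all arrays the same distribution of signals. How much of the gap between the KO arrays it removes was not measured, and the part of that gap in the member differences was not tested. After it the differences were -1.69 for Cst7, -0.43 for Ctsc 101019_at, -0.27 for Ctsh, 0.21 for Ctsl, and 0.41 and 0.38 for Ctsb 92256_at and 95608_at. These 6 probe sets were called in that fit, 3 higher and 3 lower, beside 6.56% of all tested probe sets. Nothing is read from this count either, since the members were chosen by this contrast. The prior degrees of freedom were 21.8 in that fit and infinite in the main fit, so the errors were estimated differently.

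**Figure D4:**
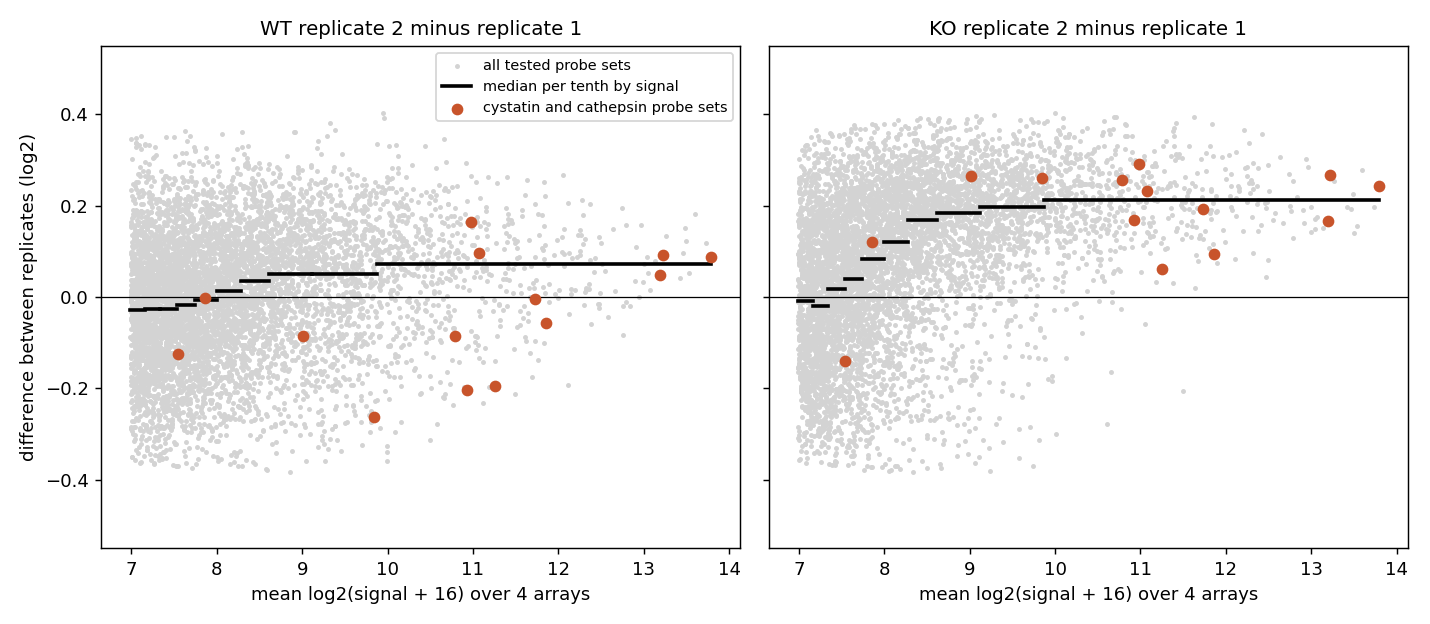
Difference of replicate 2 minus replicate 1 in log2(signal + 16) against mean signal for WT (left) and KO (right), with all tested probe sets in grey, the median of each decile by signal as black lines and the cystatin and cathepsin probe sets in orange. In KO the brightest decile has a median of 0.21 and 13 of the 14 orange points lie above 0; the sharp upper and lower edges of the grey cloud are the limit of 20% on the coefficient of variation.

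Genes around the members were taken from lists for related proteases, inhibitors, sorting, regulators and substrates. Apart from the members, 50 of the 100 listed genes had values and 38 were tested, of which 0 rose, 4 fell and 34 did not pass; over all 5002 genes tested 3.72% were called, 1.06% higher and 2.66% lower. The median log2 difference was -0.02 for these 38 genes and -0.02 for all genes tested. The 4 that fell were 3 transcription factor genes and 1 substrate gene.

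Among the other cathepsins, 0 of 3 tested genes passed. Ctsa, a carboxypeptidase that also protects other lysosomal enzymes, read 3046 and 3237 in WT and 3331 and 3926 in KO (log2 difference 0.20, limma adjusted p = 0.92). Ctse, an aspartic protease, read 240.7 and 313.0 in WT and 211.4 and 249.7 in KO, and the arrays overlap. Ctsg, a serine protease of neutrophils, was below the filter, between 44.7 and 65.5 on all arrays.

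Among the other cystatins and stefins, 0 of 3 passed. Cstb, the intracellular inhibitor stefin B, read 8026.5 and 8207.5 in WT and 7777.5 and 8582.2 in KO, a log2 difference of 0.01 (SE 0.14). Serpins are another kind of inhibitor, and the serpin gene Serpina3n read 212.5 and 226.5 in WT and 275.6 and 291.4 in KO (log2 difference 0.35, limma adjusted p = 0.084). Serpinb6a read 479.2 and 503.7 in WT and 541.0 and 644.8 in KO (log2 difference 0.26, limma adjusted p = 0.65). Neither serpin passed, so 0 of 2 tested did. Serpina3n passed by limma after quantile normalization (adjusted p = 0.013), with the replicate number as a block (adjusted p = 0.0036) and without KO replicate 1 (adjusted p = 0.033).

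Other lysosomal peptidases and their activators did not pass in any of 9 tested genes, with a median log2 difference of 0.10. Lgmn, the asparaginyl protease legumain that matures several cathepsins, read 730.2 and 685.1 in WT and 790.8 and 906.8 in KO (log2 difference 0.25, limma adjusted p = 0.74, and 0.030 after quantile normalization). Psap, which encodes the precursor of the saposins, read 7475.5 and 8072.3 in WT and 7182.8 and 8040.7 in KO. Genes that sort enzymes to lysosomes gave 0 of 9 past the threshold and a median of -0.05. Igf2r, a mannose 6-phosphate receptor that carries cathepsin precursors, read 460.6 and 454.3 in WT and 408.9 and 420.1 in KO, with the genotypes apart but a log2 difference of only -0.14 (SE 0.14).

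Of 8 tested transcription factor genes on the list, 3 fell, 0 rose and 5 did not pass, with a median of -0.22. Irf8, a factor of the monocyte lineage, read 2304.8 and 2607.4 in WT and 1142.6 and 1344.7 in KO (log2 difference -0.97, SE 0.16, limma adjusted p = 1.24e-07). Irf1, an interferon-induced factor, read 2591.5 and 2630.2 in WT and 1221.4 and 1460.1 in KO (log2 difference -0.96, limma adjusted p = 2.03e-07). Ciita, the class II transactivator, read 221.6 and 232.6 in WT and 152.3 and 148.4 in KO (log2 difference -0.55, limma adjusted p = 6.95e-05). For all 3 the genotypes are well apart. The KO signals of Ciita were only just above the highest controls of their arrays (150.1 and 143.7). Its log2 difference was -0.59 with 1 added before the logarithm and -0.44 with 64. Cebpb, which encodes a C/EBP factor that inflammatory signals induce, read 1694.9 and 1815.7 in WT and 1234.6 and 1594.5 in KO (log2 difference -0.32, limma adjusted p = 0.50). It passed as lower after quantile normalization (limma adjusted p = 0.037), with the replicate number as a block (0.041) and without KO replicate 2 (0.0066). Tfeb, a master regulator of lysosomal genes, read 174.4 and 201.4 in WT and 169.3 and 197.2 in KO, and Cebpa, which encodes a C/EBP factor of myeloid cells, read 1761.1 and 1833.4 in WT and 1719.6 and 2028.4 in KO; both overlap.

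Of 5 tested substrate genes, 1 fell and 4 did not pass. Of those 4, Elane was below the highest control on all 4 arrays, and Prtn3 and Cma1 were below it on 3 each. The last, Nppa, read 270.7 and 260.8 in WT and 262.8 and 225.2 in KO. Cd74, the invariant chain that Ctss trims, read 4050.3 and 4420.1 in WT and 2304.2 and 2565.8 in KO (log2 difference -0.80, SE 0.15, limma adjusted p = 2.29e-05). Substrate and protease thus had unlike differences, -0.80 for Cd74 and 0.03 for Ctss, and the difference between them was not tested. Without WT replicate 1 only Ciita of the 4 fallen genes stayed past the threshold (adjusted p = 0.029), with 0.080 for Irf8, 0.17 for Irf1 and 0.38 for Cd74. The log2 differences in that fit were -0.58 for Ciita, -1.06 for Irf8, -0.97 for Irf1 and -0.86 for Cd74. Without WT replicate 2 all 4 missed it, at limma adjusted p from 0.11 to 0.76, and their log2 differences were then between -0.95 and -0.51.

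**Figure D5:**
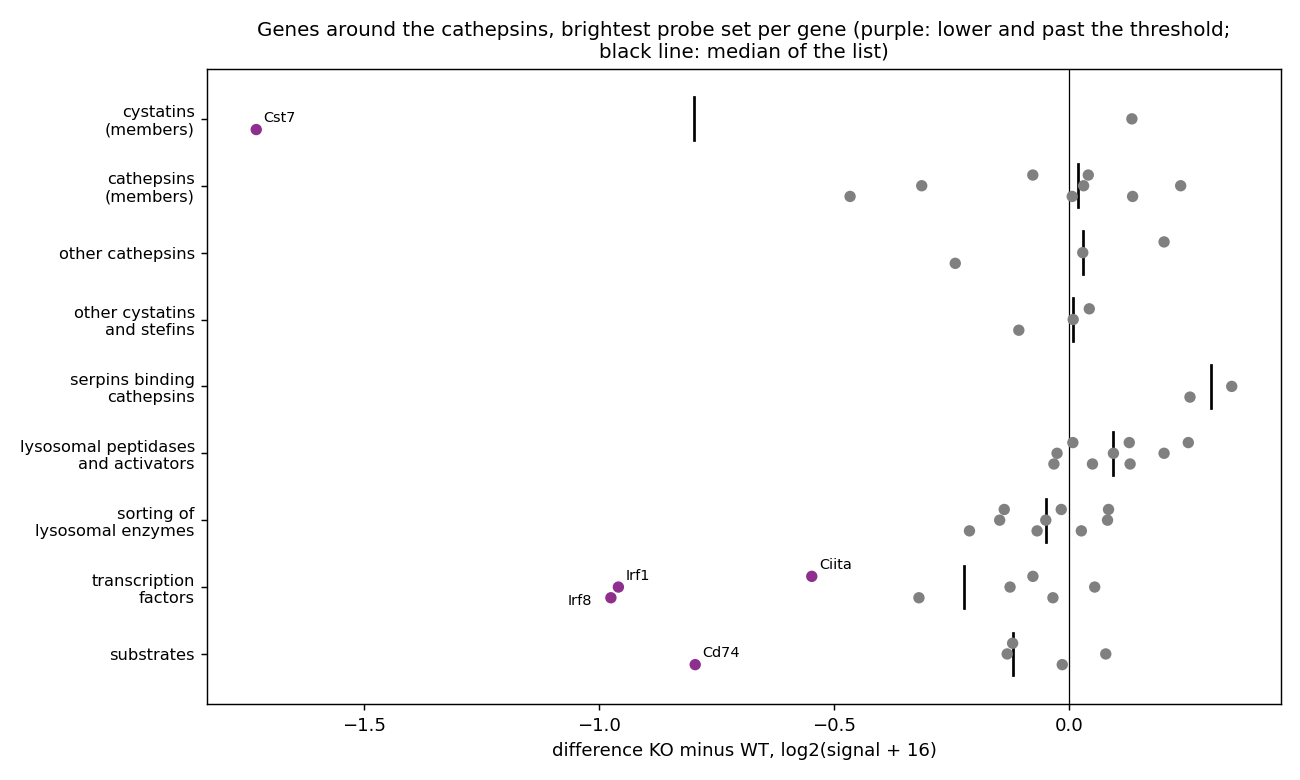
Difference of KO minus WT in log2(signal + 16) for each tested gene of the member lists and of the 7 related lists, by its brightest probe set; grey points did not pass, purple points passed and are lower in KO, and a black line is the median of the list. Besides Cst7, the purple points are Irf8 (-0.97), Irf1 (-0.96), Cd74 (-0.80) and Ciita (-0.55).

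Markers of other cells that a lavage can hold, and of macrophages themselves, are given because cathepsins are abundant in macrophages. Of 11 tested macrophage markers 1 rose (Mrc1), 1 fell (Mertk) and 9 did not pass. The summed signal of all 12 with values ran from 21758.8 to 22374.2 in WT and from 21096.7 to 24067.0 in KO. Mrc1, the mannose receptor gene, read 93.0 and 94.8 in WT and 174.1 and 205.4 in KO (log2 difference 0.90, limma adjusted p = 1.04e-13), and Mertk, a receptor for apoptotic cells, read 225.6 and 233.4 in WT and 134.7 and 150.5 in KO (log2 difference -0.63, limma adjusted p = 1.37e-06). The macrophage gene Adgre1 read 1429.2 and 1421.2 in WT and 1062.8 and 1212.8 in KO (log2 difference -0.32, limma adjusted p = 0.46). Of 6 tested neutrophil markers 1 fell, S100a8 (log2 difference -0.58, limma adjusted p = 0.0015), with an adjusted p of 0.41 without WT replicate 1 and 0.74 without WT replicate 2, while S100a9 stayed between 64.7 and 82.8 and Ly6g between 62.4 and 72.6, below the highest control. Of 7 tested fibroblast and mesothelial markers 1 rose, Dcn (log2 difference 0.75, limma adjusted p = 6.31e-05), with an adjusted p of 0.29 without WT replicate 1 and 0.75 without WT replicate 2. The other 6 did not pass. The summed signal of all 13 with values ran from 2537.1 to 2628.2 in WT and from 3159.2 to 3521.1 in KO. Within that sum Dcn alone read 616.3 and 560.9 in WT and 945.2 and 1059.7 in KO. Pdgfrb, Msln, Upk3b, Krt19, Wt1, Thy1 and Col6a2 were below the highest control on all 4 arrays. Fibroblasts also make Ctsk, Ctsl and Ctsb, and the part of such cells in the higher means of these genes was not tested. B cell, T and NK cell, mast cell and eosinophil markers gave 0 of 6, 0 of 2, 0 of 2 and 0 of 1 tested genes past the threshold.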

How the data were processed

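The deposited table gives each probe set 1 linear intensity on each array, judged from its values. How the authors summarised, background-corrected and scaled them: not given in the sources used here. Among 12488 rows, 1780 were blank on all arrays. The platform annotation named 1 gene for 9389 of 10649 probe sets with values, several for 341 and none for 919. Array medians differed by less than 0.1 on the log2(intensity + 16) scale, so values were used as deposited.

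The genotypes were compared in R 4.3.3 with limma 3.58.1 (lmFit, eBayes with trend, two-sided, Benjamini-Hochberg over 6389 probe sets whose mean lay above the 40th percentile, or 111 units). The prior degrees of freedom were infinite, so errors come from the trend over all probe sets. A gene is its brightest probe set above the filter, or the brightest of all where none is. Probe sets below the filter were taken from the fit without it. The code was tested on simulated data.

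Members, lists and tests were chosen with earlier results of these data known. Named were all members, in each list those past the threshold (at most 4) with others as examples, and the 5 genes closest to Cst7. Lgmn, Psap, Igf2r, Tfeb, Cebpa and Cebpb fall outside that rule and were picked after their values were seen. The same holds for the substrate genes Elane, Prtn3, Cma1 and Nppa. Alternatives were other normalizations, filters, pseudocounts (1, 64) and moderation, an adjusted p of 0.1, a block and each array left out. Figures used matplotlib 3.10.9 in Python 3.11.15.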

Additional observations from a re-analysis of the deposited data

How the results depend on the processing

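Since the members were chosen on this contrast, their calls across fits, those of Cst7 included, are no measure of stability. Without variance moderation 0 of the 6389 probe sets, 0 member probe sets and 0 related genes passed in limma after adjustment, and 388 probe sets had an unadjusted p under 0.05. The number of probe sets called (227) became 419 after quantile normalization, 480 with the replicate block and between 56 and 329 when each array was left out. The number of member probe sets called (1) became 6 after quantile normalization, 5 with the replicate block (Cst7, Ctsc, Ctsh and 2 of Ctsb), 3 with no filter (Cst7 and 2 of Ctsc, on 16 in place of 14), 2 without the trend, with robust moderation or at an adjusted p of 0.1 (Cst7 and Ctsc), and between 1 and 3 when each array was left out. The number of related genes called (4) became 7 after quantile normalization and between 0 and 5 when each array was left out; the block gave 6. Each fit with an array left out has 1 residual degree of freedom per probe set. Its spread comes from the genotype with 2 arrays alone, and the lone array is assumed to vary like it. Counts under the other alternatives were within 1.5 times those reported. Over all probe sets, 331 of 10649 were called with no filter. Of the 6389 tested in the main fit, 290 were called without the trend, 231 with robust moderation and 281 at an adjusted p of 0.1. The replicate numbers are shared by the genotypes but mark no stated pairing; the replicate differences of WT and KO correlated at 0.42 over tested probe sets. The cause of these shifts was not tested. Among the members, low signals limit Cst7 in KO and 2 Ctsc probe sets.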
